A study of Oryza sativa with 35 samples.

Results

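Of the 57778 rice loci measured, 92 had transcript levels well below their 0 h level after 72 h of chilling in the chilling-sensitive cultivar 9311, with no such drop in the tolerant line DC90 by the measure used for the choice. These loci were chosen from deposited FPKM values (fragments scaled to library size and to transcript length). For each locus the ratio R(t) was the log2 of mean FPKM plus 1 at time t over mean FPKM plus 1 at 0 h in the same genotype. A locus was taken when R(72) was at most -1.5 in 9311 and at least -0.5 in DC90, and when the highest 9311 library at 72 h lay below the lowest DC90 library at 72 h. Comparisons of 72 h with 0 h, and of the genotypes at 0 and 72 h, therefore describe the choice and were not tested. Comparisons of 24 and 96 h with 0 h share the 0 h libraries with the choice, so their calls are given as a description of the 92 loci and not as independent support. The opposite choice, low in DC90 alone, found 25 loci, and 1319 loci had R(72) of at most -1.5 in both genotypes.

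RNA was taken from whole 30-day-old rice seedlings before chilling (0 h), after 12, 24 and 72 h of chilling at 10 °C by day and 8 °C by night, and after 12 and 24 h of recovery under normal conditions (84 and 96 h). 9311 is an indica rice cultivar. DC90, called W9 in the sample records, is a single near-isogenic line that carries the wild rice (Oryza rufipogon) locus CTS-12 in the 9311 background, so that other wild rice segments in that line cannot be told apart from CTS-12. Each of the 12 groups had 3 libraries, described as biological replicates, except 9311 at 84 h with 2 (replicates 1 and 3). The 12 and 84 h samples were taken 12 h out of phase with the 0 h samples.

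Rice is a warm-climate plant, and chilling slows its water uptake, photosynthesis and growth. During cold, transcripts for water channels, cell wall synthesis, nutrient transport and photosynthesis commonly change together, and after rewarming a surviving plant restores them. The 92 loci include genes with each of these roles. All of them had a mean FPKM of at least 0.5 over the 35 libraries and so belonged to the 22961 loci tested. Their mean FPKM ran from 0.667 to 1013, with a median of 8.33. The Swiss-Prot description is empty for 28 of the 92, and 2 were loci that the authors added to the annotation.

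Total counts per library ran from 28004101 to 68927044. Replicate 2 of 9311 at 72 h resembled replicate 1 of DC90 at 72 h (Pearson's r of log2(FPKM + 1) across loci 0.932) more than its own group (at most 0.889), and replicate 2 of 9311 at 12 h resembled replicate 2 of DC90 at 12 h (0.941) more than its own group (at most 0.886). In all, 7 of the 35 libraries were most like a library of the other genotype at the same time. The others were the 3 libraries of DC90 at 0 h (0.937, 0.935 and 0.932 with 9311 at 0 h, against at most 0.924 within their group), replicate 1 of 9311 at 84 h (0.944) and replicate 1 of 9311 at 96 h (0.949). Replicate 3 of 9311 at 24 h reached 0.940 with its own group, against 0.964 between the other libraries of that group. Without replicate 2 of 9311 at 72 h the same choice found 448 loci, of which 84 were among the 92. Without replicate 3 of DC90 at 0 h it found 147, of which 84 were among the 92, and without both libraries it found 510, of which 76 were shared. Over the other replicates at 0 and 72 h left out one at a time, the number ran from 78 to 122. The length of the list thus depended mainly on 1 library of 9311 at 72 h, in which 45 of the 92 had their highest level of the group.

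Whole seedlings contain roots and shoots, and in bulk samples fewer cells of a type and less RNA per cell cannot be told apart. The summed FPKM of 8 root markers (silicon and nitrate uptake genes, PIP2 aquaporins and RCc3), none of them among the 92 loci, was 725 in replicate 3 of DC90 at 0 h against 44.8 and 49.3 in its sister libraries, and all 8 were higher there than in both sisters. In 9311 at 0 h the root sum ran from 147 to 214. At 72 h it ran from 5.02 to 15.5 in 9311 and from 25.4 to 44.6 in DC90, with no overlap, and all 8 had a lower mean in 9311. At 24 h the root sums overlapped, from 28.3 to 49.6 in 9311 and from 18.3 to 37.4 in DC90. Neither group had a root marker at 0 in all libraries at these times. The part of root RNA in the values of the 92 loci was not tested.

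**Figure D1:**
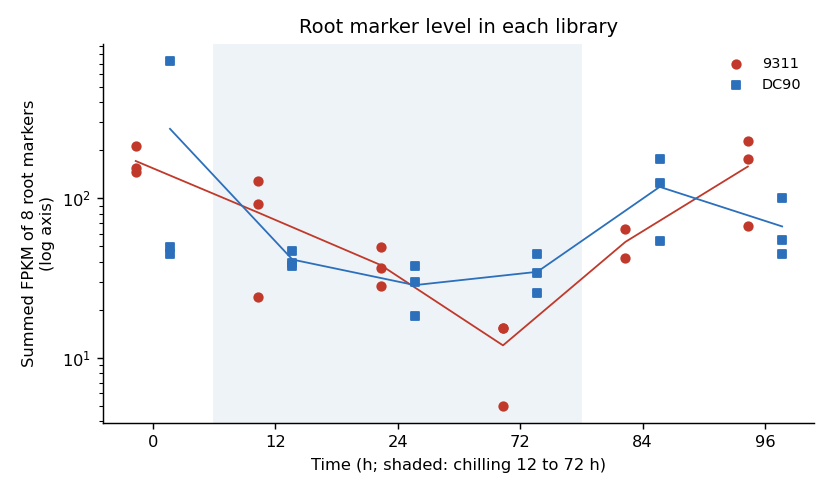
Summed FPKM of 8 root marker genes (vertical, log axis) in each of 35 libraries by time in hours (horizontal), with red circles for 9311, blue squares for DC90 and lines through the group means. Replicate 3 of DC90 at 0 h stands at 725, and the 9311 libraries at 72 h, at 5.02 to 15.5, lie below those of DC90, at 25.4 to 44.6.

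Over the 92 loci the median level in 9311 was lower at each later time of chilling and was near or above that of 0 h in recovery. After 12, 24 and 72 h of chilling the median R in 9311 was -0.65, -1.34 and -1.86, and in recovery it was 0.34 and then 0.05. In DC90 the same medians were -0.38, -0.61 and -0.16, followed by 0.45 and 0.15. By counts, the median fitted log2 fold change of the 92 from 0 to 72 h in DC90 was -0.41, against -0.07 over all tested loci. It was below 0 for 69 of the 92 and above 0 for 23, and at most -1 for 3. Over all 22961 tested loci the median R at 24 h was -0.30 in 9311 and -0.19 in DC90, and at 72 h it was -0.08 and 0.14. For recovery, this background median was 0.27 (9311) or 0.35 (DC90) after 12 h. After 24 h of recovery it was -0.003 (9311) or 0.09 (DC90). The recovery medians of the 92 thus lay close to those of all tested loci, and their height above 0 h was not particular to the 92.

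**Figure D2:**
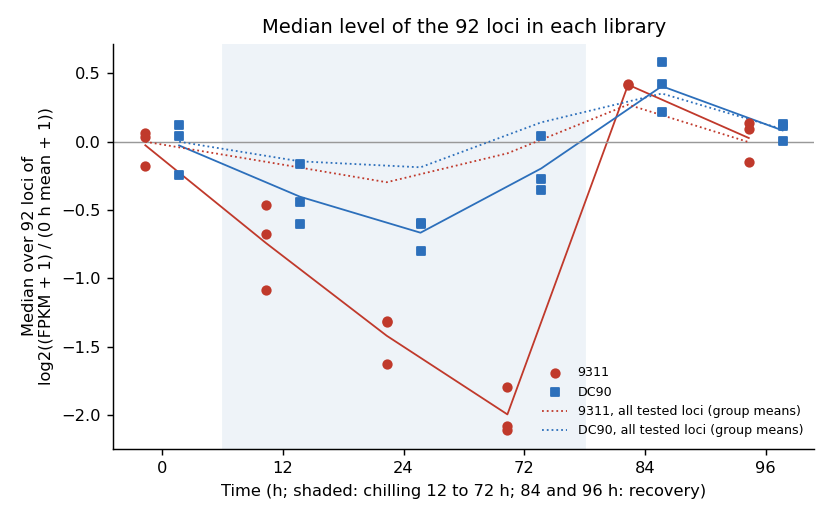
Median over the 92 loci of the log2 ratio of FPKM plus 1 to the 0 h group mean plus 1 (vertical) by time in hours (horizontal), with 1 point per library and lines through the means of these library medians. Dotted lines give the median over all tested loci from group means. In 9311 (red circles) the medians of the 72 h libraries lie at -2.11, -1.79 and -2.08, and in DC90 (blue squares) at 0.04, -0.36 and -0.27.

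The individual loci followed several courses. R(24) was at most -1 in both genotypes for 23 loci, in 9311 alone for 44, in DC90 alone for 1 and in neither for 24. These are 67 of the 92 in 9311 and 24 in DC90, beside 19.4% and 16.8% of all tested loci, with the same 0 h levels that entered the choice. At 84 h R was at most -1 for 10 of the 92 in 9311 (background 6.05% of tested loci) and for 7 in DC90 (background 6.93%). At 96 h it was so for 9 in 9311 (background 3.56%) and 4 in DC90 (background 5.95%), against the same 0 h levels. At 72 h in 9311, 88 loci lay below every 0 h library, and 10 had at most 3 counts in each of the 3 libraries.

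**Figure D3:**
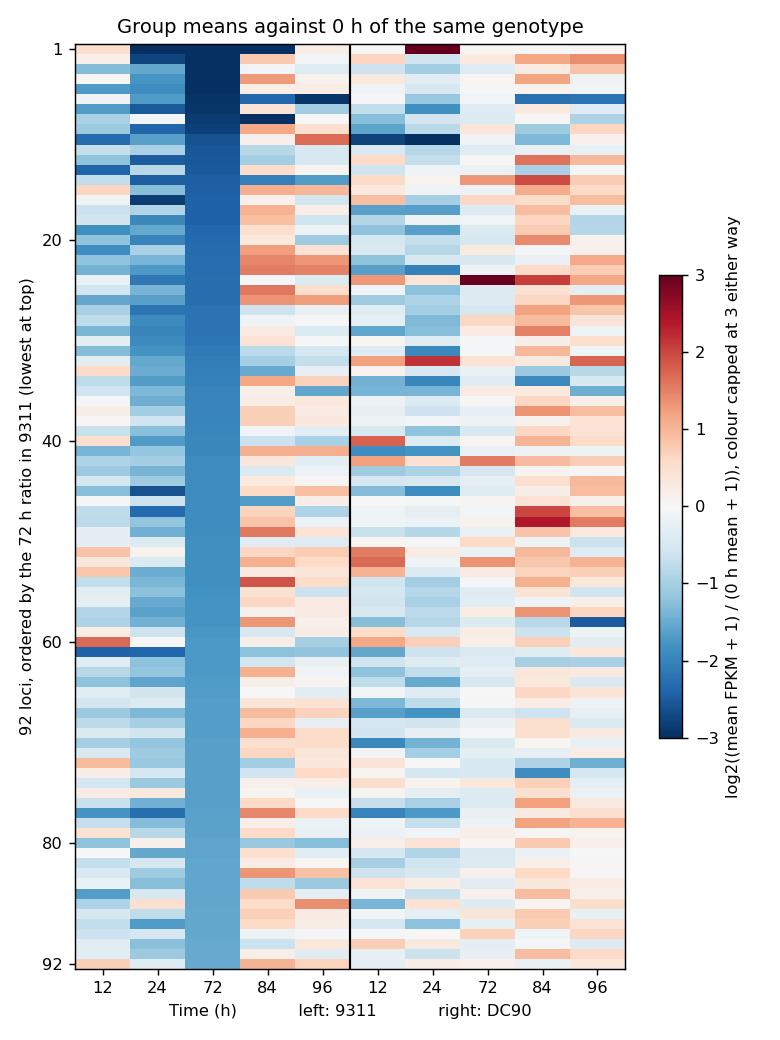
Log2 ratio of mean FPKM plus 1 to the 0 h mean plus 1 of the same genotype (colour, blue lower and red higher, capped at 3 either way) for each of the 92 loci (rows, ordered by R(72) in 9311) at 12, 24, 72, 84 and 96 h in 9311 (left) and DC90 (right). The 72 h column of 9311 is blue by the choice of loci. In 9311, 67 loci had a ratio of at most -1 at 24 h, and in DC90, 24 had one.

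The locus with the lowest R(72) in 9311, -4.94, was LOC_Os09g30300, an uncharacterized protein. It had 739, 2 and 441 counts in the 3 libraries of 9311 at 0 h and 1 count in each of those at 72 h. In DC90 it had 1 or 2 counts in every library at 0 and at 72 h, and 2034 counts in 1 library at 24 h beside 1 and 2 in the others. It was thus near zero in DC90 at both times, and its presence among the 92 rests on 2 libraries of 9311 at 0 h. In all, 16 of the 92 loci had at most 3 counts in 1 library and at least 100 in another of the same group, and 5 had a mean FPKM under 1 in DC90 at both 0 and 72 h.

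LOC_Os05g02070, a metallothionein-like protein 2C, belongs to a family of small cysteine-rich proteins that bind metal ions. Its FPKM in 9311 was 945, 1169 and 907 at 0 h, 216, 82.6 and 149 at 24 h, and 26.7, 139 and 44.1 at 72 h. In DC90 it was 685, 895 and 432 at 0 h, 434, 491 and 415 at 24 h, and 1417, 592 and 462 at 72 h. The groups did not overlap at 24 h or at 72 h, and the 9311 mean was 14.4-fold lower at 72 h than at 0 h. After 12 h of recovery its mean stood at 1732 ± 416 (SD, n = 2) in 9311 and 1505 ± 67.1 (SD, n = 3) in DC90.

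LOC_Os04g43760 was described as phenylalanine ammonia-lyase, which makes cinnamic acid from phenylalanine at the entry to lignin and flavonoid synthesis. In 9311 its FPKM was 31.1, 31.4 and 33.5 at 0 h, 15.8, 0.618 and 14.7 at 24 h, and 1.92, 1.99 and 1.54 at 72 h. In DC90 it was 18.6, 15.4 and 16.7 at 72 h, but at 0 h it had 572, 1 and 13063 counts in the 3 libraries. The 0 h level in DC90, on which its R(72) of -0.39 rests, was set mainly by replicate 3, the library with the high root marker sum. Single counts also appeared in 1 library each of DC90 at 12 and 24 h and of 9311 at 12 and 96 h.

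LOC_Os11g10520 encodes alcohol dehydrogenase 2, which reduces acetaldehyde to ethanol in fermentation. Its FPKM in 9311 was 12.1, 17.9 and 10.8 at 0 h, 3.68, 3.85 and 2.41 at 24 h, and 0.0753, 0.409 and 0.727 at 72 h. In DC90 it was 3.47, 3.81 and 7.88 at 0 h, 1.88, 6.13 and 3.33 at 24 h, and 8.86, 3.26 and 3.86 at 72 h. Before chilling all 3 libraries of 9311 lay above all 3 of DC90, at 24 h the genotypes overlapped, and at 72 h 9311 lay below.

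The uncharacterized LOC_Os06g03059 had FPKM of 12.4, 6.8 and 6.71 at 0 h in 9311, 0.631, 3.04 and 1.31 at 24 h, and 0.353, 0 and 0.144 at 72 h. In DC90 its FPKM was 4.05, 14 and 3.14 at 0 h, 4.56, 5.48 and 4.4 at 24 h, and 14.9, 1.53 and 4.03 at 72 h. The genotypes overlapped at 0 h and did not at 24 and 72 h, and the DC90 libraries at 72 h differed among themselves by more than their mean of 6.82.

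LOC_Os06g04920, the zinc finger protein VAR3, is known in Arabidopsis for a role in chloroplast development. In 9311 its FPKM was 21.7, 83.1 and 35.2 at 0 h, 20.2, 11 and 10.2 at 24 h, and 3.23, 10.0 and 2.24 at 72 h. In DC90 it was 30.6, 89.9 and 25.2 at 0 h, 27.8, 14.6 and 22.1 at 24 h, and 49.9, 69.1 and 19.4 at 72 h. It did not return in recovery. At 96 h its mean was 5.33 ± 0.928 (SD, n = 3) in 9311 and 9.7 ± 0.5 (SD, n = 3) in DC90, with fitted log2 fold changes against 0 h of -3.10 and -2.45 (standard errors 0.57 and 0.56, adjusted p = 0.00276 and 0.00609, edgeR's quasi-likelihood test).

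**Figure D4:**
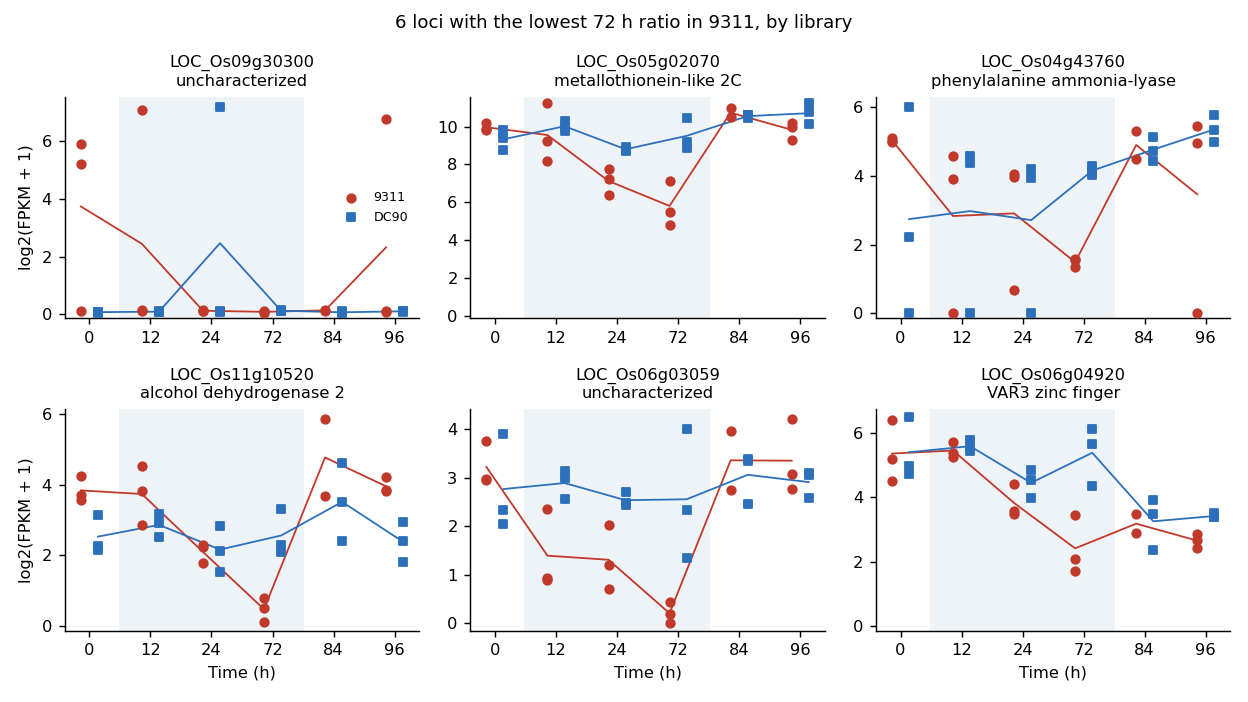
Log2(FPKM + 1) (vertical) by time in hours (horizontal) of the 6 loci with the lowest R(72) in 9311, with 1 point per library, red circles for 9311, blue squares for DC90 and lines through the means of the log2 values. LOC_Os09g30300 had 1 or 2 counts in all but 5 of the 35 libraries, and LOC_Os04g43760 had 1 count in single libraries of 5 groups. By the choice, all 6 have every 9311 library at 72 h below those of DC90.

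The next 6 loci of lowest R(72) in 9311 included regulators, surface lipid and defence genes. Transcription factor ILI3 (LOC_Os03g07540, a helix-loop-helix protein) had R(72) of -2.91 in 9311 and -0.38 in DC90. LOC_Os12g07430, a hypothetical protein, had a mean FPKM in 9311 of 7.45 ± 2.73 at 0 h and 0.174 ± 0.302 at 72 h (SD, n = 3), and in DC90 of 38.2 ± 14.7 and 28.6 ± 2.21 (SD, n = 3). LOC_Os10g27330, glycerol-3-phosphate 2-O-acyltransferase 6, of an enzyme family known in Arabidopsis for making cutin, and LOC_Os11g47680, an osmotin-like protein of the pathogenesis-related class, had 0 counts in every 9311 library at 72 h. With 3 counts per library as the floor, they were at least 147-fold and at least 59.4-fold lower there than at 0 h. In DC90 at 72 h their FPKM was 4.34, 1.64 and 13.1 for LOC_Os10g27330 and 9.42, 11.4 and 9.58 for LOC_Os11g47680.

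Both loci were also listed at 0 in libraries of other groups. LOC_Os10g27330 had 0, 79 and 0 counts in 9311 at 24 h. In DC90 it had 0, 423 and 195 counts at 24 h and 333, 0 and 208 at 84 h. LOC_Os11g47680 was listed at 0 in 1 of 3 libraries of 9311 at 0 h. Its FPKM in DC90 was at most 0.855 in all libraries at 24 h, which lay below every DC90 library at 0 and 72 h. The remaining pair were LOC_Os07g44060, an uncharacterized protein with 6.35-fold lower mean FPKM at 72 h than at 0 h in 9311, and LOC_Os05g12320, the bidirectional sugar transporter SWEET3a. SWEET3a had a mean FPKM in 9311 of 4.95 ± 3.91 at 0 h and 0.0176 ± 0.0305 at 72 h (SD, n = 3), and in DC90 of 0.793 ± 0.556 and 0.852 ± 0.669 (SD, n = 3).

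The thresholds divided loci of closely similar values. Argonaute 2-like LOC_Os12g33415 (R(72) in 9311 -1.51) and LOC_Os01g67520, GDP-L-galactose phosphorylase 2 of ascorbate synthesis (-1.51), lay just inside the 9311 threshold, and the uncharacterized LOC_Os08g11470 and the glucuronosyltransferase LOC_Os03g48560 (both -1.49) just outside. On the DC90 side, metal transporter Nramp5 (LOC_Os07g15370) and the arsenic-related protein HAC1 (LOC_Os02g01220) lay just inside at -0.49. Ent-copalyl diphosphate synthase 1 (LOC_Os02g17780, -0.51) and a BAG family chaperone regulator (LOC_Os06g01500, -0.52) lay just outside.

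Whether the 92 loci changed between 12 and 24 h of chilling was tested by comparing libraries that had no part in their choice. The fit behind this and the other tests took in all 35 libraries, those of 0 and 72 h included. Its estimates of spread were therefore not independent of the choice. A locus was called changed when counts differed by log2 1 or more in either direction and the adjusted p did not exceed 0.05 in edgeR's quasi-likelihood test, adjusted by Benjamini and Hochberg's method over all 22961 tested loci. In 9311, 18 of the 92 fell from 12 to 24 h (19.6%) and none rose, beside a background of 2.83% of tested loci that fell and 3.45% that rose. In DC90, 3 fell (3.26%, background 0.78%) and none rose (background 1.85%). The median log2 fold change of the 92 loci was -0.71 in 9311 and -0.40 in DC90, against -0.06 and 0.00 over all tested loci. At an unadjusted p under 0.05, 2 of the 92 rose in 9311 (background 12%) and 4 in DC90 (background 10.1%). With DESeq2, 2 rose in 9311 and 3 in DC90. The 24 h samples were taken 12 h out of phase with the 12 h samples, so longer chilling and time of day cannot be told apart in this comparison.

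The 18 loci that fell in 9311 included transporters and metal proteins. The metallothionein-like LOC_Os05g02070 fell by 2.66 on the log2 scale (standard error 0.55, adjusted p = 0.0026). The nitrate and peptide transporter family member LOC_Os11g12740 (NRT1/PTR 4.4) fell by 2.65 (standard error 0.44, adjusted p = 0.000265), and SWEET3a fell by 4.74 (standard error 1.24, adjusted p = 0.0167). The counts of SWEET3a were lower at 24 h in DC90 too, at 4, 25 and 4 against 219, 77 and 139 at 12 h, without a call there. The adjacent water channel genes PIP2-4 (LOC_Os07g26630) and PIP2-6 (LOC_Os07g26640) fell by 2.27 and 2.28 (adjusted p = 0.0033 and 0.0245), with values that may share reads, as adjacent members of a gene family can. Beta-glucosidase 24 (LOC_Os06g21570), LOC_Os11g12740 and the abundant hypothetical protein LOC_Os01g74300 also fell from 12 to 24 h in DC90, by 3.42, 1.58 and 1.87 (adjusted p = 0.01, 0.0301 and 0.0273).

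The fall in 9311 rested partly on single libraries. Without replicate 3 of 9311 at 24 h, 8 of the 92 fell and 2 rose, while without the 4 libraries that stand apart (9311 replicate 2 at 12 h, replicate 3 at 24 h and replicate 2 at 72 h, and DC90 replicate 3 at 0 h) 15 fell and 1 rose in 9311, and 6 fell and 1 rose in DC90. When only the libraries compared were fitted, none was called in 9311. The difference between the genotypes in this response was itself tested in the same fit, and none of the 92 passed in either direction, as in 0% of the tested loci. At an unadjusted p under 0.05, the change was more positive in DC90 for 10 of the 92 (10.9%, background 2.39%) and more negative for 1 (1.09%, background 1.04%).

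Against 0 h, 37 of the 92 had fallen in 9311 at 24 h (40.2%, background 16.6%) and none had risen (background 15%). In DC90, 13 had fallen (14.1%, background 16.3%) and 2 had risen (2.17%, background 14.4%). Of the 2 that rose, LOC_Os09g30300 had 1, 2034 and 2 counts in DC90 at 24 h, so its call rested on 1 library. None had risen in 9311 at an unadjusted p under 0.05 (background 23.9%), and none in DESeq2. Since the 0 h levels entered the choice, nothing is read from how these counts stand to the background. The same holds for the difference between genotypes in the change from 0 to 24 h, which passed for none of the 92 (background 0.00871% more positive in DC90 and 0.0131% more negative). It was more positive in DC90 at an unadjusted p under 0.05 for 13 (14.1%, background 2.12%) and more negative for none (background 1.72%).

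At the stricter limits of the study (log2 2 and an adjusted p of 0.001), 1 of the 92 fell in 9311 from 12 to 24 h (background 0.126%, with 0.283% rising) and 8 from 0 to 24 h (background 3.6%, with 4.35% rising). In DC90 these counts were 0 (background 0.00871%, with 0.109% rising) and 1 (background 3.11%, with 4.07% rising). From 0 to 96 h none passed in 9311 (background 0.196% lower and 0.0392% higher) or in DC90 (background 1.06% lower and 0.0479% higher).

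**Figure D5:**
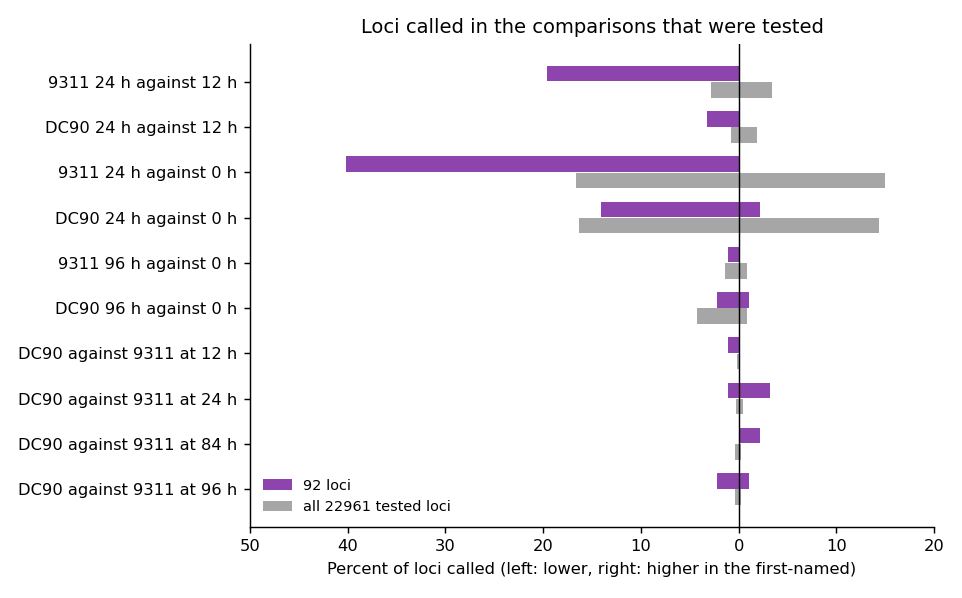
Percent of the 92 loci (purple) and of all 22961 tested loci (grey) called in each comparison that was tested (edgeR, counts differing by log2 1 or more and adjusted p not above 0.05), with lower calls to the left of 0 and higher calls to the right, each in the group named first. From 12 to 24 h in 9311, 19.6% of the 92 fell beside 2.83% of all tested loci, and from 0 to 24 h 40.2% beside 16.6%, where the 0 h libraries had also entered the choice.

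By role, with 24 h set against the same 0 h libraries that entered the choice, the transcription factors that fell by 24 h in 9311 were ILI3 (log2 fold change -3.01, standard error 0.55, adjusted p = 9.5e-05), the AP2-like LOC_Os09g25600 (-2.10, adjusted p = 0.00038) and heat stress factor B-4c, LOC_Os09g28200 (-1.5, adjusted p = 0.048). ILI3 and the AP2-like factor fell in DC90 as well, with log2 fold changes of -2.18 and -2.25 (adjusted p = 0.0018 and 0.0002), whereas B-4c had -0.90 (adjusted p = 0.23). The knotted-like homeobox gene LOC_Os03g47016, a meristem regulator class, had log2 fold changes of -0.70 and 0.01 by 24 h in 9311 and DC90 (adjusted p = 0.637 and 0.997). Its counts in 9311 were 129, 103 and 100 at 0 h, 5, 4 and 3 at 12 h, and 158, 3 and 3 at 24 h. In DC90 they were 5, 219 and 120 at 24 h. The 24 h value in 9311 thus rests on replicate 1, and the locus was already near the floor at 12 h. In 9311 it had at most 2 counts in every library at 72 h, at least 31.9-fold lower than at 0 h. In all, 4 of the 92 matched the search terms for transcription factors (4.35%, against 3.36% of tested loci).

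Transporters and channels made up 6 of the 92 by the same search of descriptions (6.52%, against 3.2% of tested loci), and 4 further loci were described as NRT1/PTR family proteins. The tonoplast water channel TIP4-3 (LOC_Os01g13120) fell by 24 h in 9311 (log2 fold change -1.21, standard error 0.48, adjusted p = 0.0456), and in DC90 its log2 fold change of -1.14 had an adjusted p of 0.058. In recovery at 84 h its mean FPKM was 55.4 ± 16.6 (SD, n = 2) in 9311, above the 17.7 ± 2.43 (SD, n = 3) of 0 h. At 0, 24 and 72 h PIP2-4 had means in 9311 of 14.1 ± 3.63, 4.41 ± 0.558 and 2.64 ± 0.377 (SD, n = 3), and in DC90 of 16 ± 10.5, 11.2 ± 3.18 and 13.9 ± 6.17 (SD, n = 3).

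Among the NRT1/PTR members, which in plants move nitrate, peptides and hormones, the 4.4 and 8.3 members fell in 9311 by 24 h. LOC_Os11g12740 (4.4) had a log2 fold change of -1.33 in 9311 (adjusted p = 0.0127) and -0.18 in DC90 (adjusted p = 0.75), while LOC_Os03g13274 (8.3) had -1.25 (adjusted p = 0.00012) and -0.83 (adjusted p = 0.0055). The 2.3 member (Oryza_sativa_newGene_4714) had -2.25 in 9311 (adjusted p = 0.06). Its FPKM was lower at 24 h in DC90 too, at 0.869, 0.747 and 0.721 against 3.04, 2.52 and 2.50 at 0 h. The 6.2 member, LOC_Os01g37590, had between 1 and 5 counts in 1 or 2 libraries of each of 6 groups and at least 358 in the others of those groups. These 4 loci were picked out after their values were seen.

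For proteins that handle metals, 4 of the 92 had such descriptions, picked out after their values were seen. Besides the metallothionein, Nramp5, the manganese and cadmium uptake transporter of rice roots, had means in 9311 of 11.4 ± 3.22 at 0 h and 2.37 ± 1.16 at 72 h (SD, n = 3), and in DC90 of 10.2 ± 11.5 and 6.93 ± 2.1 (SD, n = 3). Nramp5 was among 7 loci with replicate 3 of DC90 at 0 h above 3 times the higher of its sisters. HAC1, an arsenate reductase in rice, fell by 24 h in both genotypes, with log2 fold changes of -2.54 and -1.23 (standard errors 0.42 and 0.40, adjusted p = 2.9e-05 and 0.016 in 9311 and DC90).

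Cell wall and surface genes included 2 of the 6 most abundant loci. The non-specific lipid-transfer protein 2B (LOC_Os11g02369), which carries lipids outside the cell, had the highest mean FPKM of the 92 at 1013. Its FPKM was 1056, 550 and 668 at 0 h and 150.3, 231 and 86.1 at 72 h in 9311, and 2272, 782 and 541 at 0 h and 931, 710.1 and 1685 at 72 h in DC90. At 24 h it had fallen in DC90 by 1.5 on the log2 scale (standard error 0.53, adjusted p = 0.026), and in 9311 its log2 fold change was -0.91 (adjusted p = 0.17). At 72 h its levels lay within the range of 0 h in DC90 and below that range in 9311, a contrast that follows from the choice of loci.

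Mixed-linked glucan synthase 6 (LOC_Os08g06380) makes the mixed-linkage glucan of grass cell walls. At 0, 24 and 72 h its mean FPKM in 9311 was 126 ± 16.7, 31.9 ± 29.2 and 22.5 ± 17.1 (SD, n = 3), and 238 ± 14.6 at 84 h (SD, n = 2), while in DC90 it was 88.5 ± 38, 79.9 ± 14.4, 83.4 ± 32.2 and 139 ± 15.7 (SD, n = 3). The change to 24 h in 9311, a log2 fold change of -1.67, had an adjusted p of 0.065. Pectinesterase 41 (LOC_Os05g29790), which trims pectin side groups, fell by 24 h in both genotypes by 2.40 and 1.63 on the log2 scale (adjusted p = 0.0019 and 0.025). Xyloglucan endotransglucosylase 32 (LOC_Os10g39840) had -1.49 and -1.06 (adjusted p = 0.09 and 0.23).

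Hormone and signalling members included IAA20 (LOC_Os06g07040), of the repressors of auxin response. It fell by 24 h in 9311 (log2 fold change -1.15, standard error 0.46, adjusted p = 0.0469), and in DC90 it was above its 0 h level at 96 h (1.67, standard error 0.46, adjusted p = 0.0279). The auxin efflux carrier PIN5b (LOC_Os09g32770) fell in 9311 by 2.87 on the log2 scale at 24 h (adjusted p = 0.013) and had -1.58 in DC90 (adjusted p = 0.15). CIPK4 (LOC_Os12g41090), a kinase driven by calcium sensors, and the receptor-like kinase FEI 1 (LOC_Os12g44090) did not pass at 24 h in 9311, with log2 fold changes of -0.22 and -1.21 (adjusted p = 0.7 and 0.11).

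Photosynthesis and chloroplast proteins were 2 of the 92 (2.17%, against 7.31% of tested loci), VAR3 and a Rubisco small chain locus (LOC_Os02g05830). The latter went from a mean FPKM of 20.7 ± 7.79 before chilling to 6.54 ± 2.17 at 72 h in 9311, against 17 ± 5.17 and 28 ± 10.9 in DC90 (SD, n = 3), and may share reads with other small chain copies. By the search of descriptions, ribosomal proteins, pentatricopeptide repeat proteins, cytochrome P450 enzymes, peroxidases, glycosyltransferases, histones with cyclins and kinesins, heat shock proteins, transposon proteins and RNA helicases had no locus among the 92. Each of these classes held between 0.309% and 1.57% of tested loci, and a locus whose description lacks the searched words, such as a glucan synthase, was not counted. The summed FPKM of 6 leaf photosynthesis markers at 72 h ran from 747 to 2274 in 9311 and from 1597 to 3480 in DC90, against 17394 to 20695 and 15944 to 21610 at 0 h. For 6 markers of dividing cells it ran at 72 h from 21.1 to 50.1 in 9311 and from 28.8 to 44.7 in DC90. Neither list had a marker at 0 in all libraries of a group at these times, none of these markers is among the 92, and their part in the values was not tested.

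The remaining classes had few members. Beta-glucosidase 24 had means in 9311 of 3.16 ± 1.75 at 0 h and 0.082 ± 0.0577 at 72 h (SD, n = 3), and in DC90 of 0.944 ± 0.166 and 1.04 ± 0.746 (SD, n = 3). The GDSL lipase LOC_Os03g62740 fell by 24 h in both genotypes by 2.49 and 1.83 on the log2 scale (adjusted p = 0.0026 and 0.019). The F-box protein LOC_Os01g69270, the subtilisin-like protease LOC_Os04g48416, the disease resistance protein RGA2 (LOC_Os01g71114) and the zinc finger protein LATE FLOWERING (LOC_Os12g42250) did not pass at 24 h against 0 h in either genotype, with log2 fold changes in 9311 of -0.89, -0.30, -1.81 and 0.31. Putidaredoxin (LOC_Os09g33950, an electron carrier by its name) and LOC_Os04g11400 were among the 6 most abundant, with mean FPKM of 87.1 and 68.5.

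LOC_Os04g11400 lies by locus number near LOC_Os04g10924, LOC_Os04g11050 and LOC_Os04g11120, which were also among the 92 and were picked out after their values were seen. LOC_Os04g11050 had 0 counts in every 9311 library at 24 and 72 h, at least 17.6-fold and at least 18.9-fold lower than at 0 h. In DC90 its mean FPKM was 0.0472 ± 0.0818 at 0 h and 1.59 ± 1.25 at 72 h (SD, n = 3), and that of LOC_Os04g11120 was 0.139 ± 0.201 and 8.23 ± 7.44 (SD, n = 3). In DC90, R(72) was 3.02 for LOC_Os04g11120 and 1.31 for LOC_Os04g11050. They were 2 of the 4 loci with R(72) of at least 1 in DC90, beside LOC_Os11g06910 (1.54) and LOC_Os06g07220 (1.35).

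Whether the genotypes differed before and after 72 h was tested at 12, 24, 84 and 96 h. At 12 h none of the 92 was higher in DC90 (background 0.148%) and 1 was lower (1.09%, background 0.213%). At 24 h, 3 were higher (3.26%, background 0.496%) and 1 lower (1.09%, background 0.253%). At 84 h, 2 were higher (2.17%, background 0.274%) and none lower (background 0.396%). At 96 h, 1 was higher (1.09%, background 0.292%) and 2 lower (2.17%, background 0.344%). For the counts of 0, an unadjusted p under 0.05 was reached by 7 of the 92 higher at 12 h (background 4.57%) and by 5 lower at 84 h (background 5.71%), and DESeq2 called 2 higher at 12 h and none lower at 84 h.

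At 24 h the median log2 difference of DC90 from 9311 over the 92 loci was 0.53, against 0.00 over all tested loci, with 65 of the 92 above 0. At an unadjusted p under 0.05, 18 were higher in DC90 (19.6%, background 7.68%) and 1 lower (1.09%, background 5.27%). All 3 DC90 libraries lay above all 3 of 9311 in FPKM for 25 (27.2%, background 10.2%) and below for 3 (3.26%, background 6.21%). The medians at 12, 84 and 96 h were -0.02, -0.19 and -0.11.

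These calls came from 6 loci, 4 of them on chromosome 12. LOC_Os12g28270, by similarity a 5-methylthioadenosine/S-adenosylhomocysteine deaminase, was higher in DC90 at 24, 84 and 96 h, by log2 2.45 (standard error 0.32, adjusted p = 4.29e-05), 1.47 (standard error 0.35, adjusted p = 0.0435) and 1.33 (standard error 0.30, adjusted p = 0.0295). The call at 84 h was lost with DESeq2 size factors, no filter, the replicate block or only the libraries compared (adjusted p = 0.0528, 0.0569, 0.0753 and 0.204). With 1 library left out at a time its adjusted p ran from 0.0435 to 1 at 84 h and from 0.0246 to 0.192 at 96 h. Its FPKM at 24 h was 2, 3.46 and 2.59 in 9311 and 10.2, 13.0 and 20.4 in DC90. The groups did not overlap at 24 h, as they did not at 0 h, where 9311 had 6.7, 13.2 and 7.57 and DC90 had 23.0, 14.7 and 21.5. It also fell in 9311 from 12 to 24 h (log2 fold change -1.60, standard error 0.31, adjusted p = 0.00142).

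LOC_Os12g07430 had 0 counts in both 9311 libraries at 84 h, where the floor was 3 counts per library, and stood at least 143-fold above that floor in DC90 (adjusted p = 0.0011, and 0.0514 without replicate 3 of 9311 at 84 h). Its FPKM in DC90 lay between 10.6 and 54.2 in every library of the series, while in 9311 it ran from 0 to 20.2. Putative glutaredoxin-C14 (LOC_Os12g35330, of a family of small redox proteins) was higher in DC90 at 24 h by log2 2.95 (standard error 0.73, adjusted p = 0.0484), with FPKM of 5.81, 5.77 and 0.105 in 9311 and 56.2, 19.3 and 26.8 in DC90. It rose in DC90 from 0 to 24 h (log2 fold change 2.47, standard error 0.71, adjusted p = 0.0071) and had -1.35 in 9311 (adjusted p = 0.12). The call between genotypes was lost with DESeq2 size factors, no filter, the replicate block or only the libraries compared (adjusted p = 0.0535, 0.0557, 0.0717 and 0.438), and its adjusted p ran from 0.0421 to 0.19 with 1 library left out at a time. The peroxisomal membrane protein PMP22 (LOC_Os12g03430) was lower in DC90 at 96 h (-1.60, standard error 0.34, adjusted p = 0.0163), against R(72) of 0.37 in DC90 and -1.53 in 9311, with an adjusted p from 0.0261 to 0.179 when 1 library was left out.

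The other 2 loci lie on chromosome 6. G1-like2 (LOC_Os06g46030), of a family of plant nuclear proteins, was higher in DC90 at 24 h by log2 1.13 (standard error 0.27, adjusted p = 0.0363), with FPKM of 8.63, 7.35 and 10.4 in 9311 and 19, 19.5 and 22.4 in DC90, although before chilling 9311 was the higher at 36.7, 36.7 and 34 against 22, 26.6 and 32.5. The call for G1-like2 was lost with any 1 of the 6 libraries left out (adjusted p from 0.0645 to 0.121). LOC_Os06g35165 was lower in DC90 at 12, 24 and 96 h, by 4.04, 3.72 and 3.52 on the log2 scale (fitted log2 fold changes -4.04, -3.72 and -3.52, adjusted p = 0.0012, 0.00295 and 0.0024). Its mean FPKM in DC90 was at most 0.559 at every time, so that its inclusion among the 92 rests on a locus hardly detected in DC90.

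Chromosome 12 held 11 of the 92 loci (12%, against 5.33% of tested loci), with locus numbers from LOC_Os12g03430 to LOC_Os12g44090. Over all tested loci, 1.49% were called between the genotypes at least once at 12, 24, 84 or 96 h, and on chromosome 12 it was 9.98%, beside 6 of the 92 (6.52%). The other chromosomes held between 2.17% and 16.3% of the 92, on chromosomes 8 and 1 (6.23% and 13.9% of tested loci). In the deposited gene ontology terms, 14 of the 92 were integral components of membranes (15.2%, against 8.47% of tested loci), 18 belonged to the plasma membrane (19.6%, against 18.2%) and 10 to the chloroplast (10.9%, against 10.7%).

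Return after chilling was compared with 0 h, whose libraries entered the choice, at 96 h, the recovery time taken at the same hour of day. In 9311, 1 of the 92 was lower (1.09%, background 1.43%) and none higher (background 0.871%), and in DC90, 2 were lower (2.17%, background 4.3%) and 1 higher (1.09%, background 0.893%). At an unadjusted p under 0.05, 6 were higher (background 6.26%) and 6 lower (background 7.43%) in 9311, and DESeq2 called 3 lower and none higher. VAR3 was lower in both genotypes, IAA20 was the higher locus in DC90, and the uncharacterized LOC_Os08g02600 was lower in DC90 (log2 fold change -5.71, standard error 1.70, adjusted p = 0.041). Counts of LOC_Os08g02600 in DC90 were 6, 272 and 591 at 0 h, 5, 4 and 306 at 84 h, and 4, 5 and 3 at 96 h. It was thus already near the floor in 1 library at 0 h. The median log2 fold change of the 92 was 0.05 in 9311 and 0.13 in DC90. The difference between genotypes in this change passed for none of the 92 (background 0.00436% more positive in DC90 and 0.00871% more negative), and at an unadjusted p under 0.05 it was more positive in DC90 for 8 (8.7%, background 2.97%) and more negative for 4 (4.35%, background 6.2%).

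Of 2 glutaredoxins among the 92, monothiol glutaredoxin-S8 (LOC_Os05g05730) behaved unlike glutaredoxin-C14. At 0, 24 and 72 h its mean FPKM in 9311 was 21 ± 6.86, 3.22 ± 0.872 and 5.67 ± 2.18 (SD, n = 3), and it was 8.44 ± 1.42 (SD, n = 2) at 84 h and 8.7 ± 0.59 (SD, n = 3) at 96 h. Its fall by 24 h passed in 9311 (log2 fold change -2.42, standard error 0.43, adjusted p = 7.2e-05), and in DC90 it had -0.55 (adjusted p = 0.29). The uncharacterized LOC_Os03g01580 had 0 counts in every 9311 library at 72 h, at least 111-fold lower than at 0 h, and in every DC90 library at 12 h. It had at most 3 counts in 1 or 2 libraries of each of 5 other groups.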

How the data were processed

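Whole-seedling RNA was sequenced on an Illumina instrument from 35 libraries in 12 groups. The authors aligned reads with HISAT2 to the rice annotation Release 7 and deposited counts per locus and FPKM values per library. The submitters' processing notes instead name Bowtie 0.12.2 and mm8, and the counting tool and its treatment of reads with several matches are not given in the sources used here. The deposited counts were used for tests and the deposited FPKM values for levels. Total counts had a median of 41334252 per library.

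Loci with mean FPKM of at least 0.5 (22961) were fitted with edgeR 4.0.16 in R 4.3.3 (TMM, quasi-likelihood test, all 12 groups in 1 fit, Benjamini-Hochberg adjustment). Called loci differed by log2 1 or more with an adjusted p not above 0.05. The fit was tested on simulated data for DC90 against 9311 at 24 h over 22961 loci. It recovered 23 of 100 loci changed by log2 1.5 and 97 of 100 changed by log2 3, with 3 false calls. The simulated counts had 1 mean per locus before the changes and a spread set by the trend over loci. No simulated library stood apart, so these figures may be better than the real data allow. DESeq2 1.42.0, limma 3.58.1 on log2(FPKM + 1), other size factors, no filter, the study's thresholds, a replicate block, each library left out and only the libraries compared were alternatives. In the main fit the p-values judge a difference between groups against the spread among replicate libraries, estimated over all 12 groups with information shared across loci.

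The 92 loci, the gene lists and the marker lists were chosen with earlier results of these data known. Named loci were the 12 with the lowest R(72) in 9311, the 6 with the highest mean FPKM, the 2 of highest mean FPKM in each searched class, the 10 with the smallest p between genotypes averaged over 12, 24, 84 and 96 h, and the 2 on each side of each threshold. Others named, those called in a tested comparison among them, were picked after their values were seen. A floor of 3 counts per library set each "at least" fold. Root markers included 2 PIP2 aquaporins. Sequences of the loci were not used here.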

Additional observations from a re-analysis of the deposited data

How the results depend on the processing

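The number of loci found depended on the choice of settings. A pseudocount of 0.5 in place of 1 gave 143 loci (87 of the 92 among them), a pseudocount of 2 gave 59 (54 of the 92), and a limit of -2 in 9311 gave 35. CPM after TMM in place of FPKM gave 77 (50 of the 92). Leaving out each library in turn gave 78 to 448, with 448 without replicate 2 of 9311 at 72 h and 147 without replicate 3 of DC90 at 0 h, and leaving out both gave 510. The causes of these shifts were not tested.

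Counts of called loci were small and moved with the fit. Given in the order 12, 24, 84 and 96 h between genotypes, the main counts were 1, 4, 2 and 3. DESeq2 size factors gave 1 at 84 h. The DESeq2 test gave 5 at 12 h, 5 at 96 h, 3 for 9311 at 96 against 0 h, 8 for DC90 at 24 against 12 h and 6 for DC90 at 96 against 0 h. With limma there were 2 at 24 h and 4 for 9311 at 96 against 0 h, and with no filter 2 at 24 h and 1 at 84 h. With only the libraries compared, there were 0 at 12 h, 0 at 24 h, 1 at 84 h, 0 for 9311 at 24 against 12 h, 2 for 9311 at 96 against 0 h and 1 for DC90 at 96 against 0 h. At the study's thresholds, 9311 had 1 from 12 to 24 h, 8 from 0 to 24 h and 0 from 0 to 96 h, and DC90 had 0, 1 and 0.

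Without the 4 libraries that stand apart, an alternative chosen after seeing the data, there were 5 at 12 h (4 higher and 1 lower in DC90, against 0 and 1 with all libraries), 3 for 9311 at 96 against 0 h and 7 for DC90 at 24 against 12 h. For DC90 at 96 against 0 h, 3 were then higher and 1 lower, against 1 and 2 with all libraries. Leaving out 1 library at a time gave 1 to 3 at 12 h (3 without 9311 replicate 2), 2 to 3 at 24 h, 0 to 2 at 84 h (0 without 9311 replicate 3), and 1 to 3 at 96 h. For 9311 it gave 10 to 19 from 12 to 24 h (10 without replicate 3 at 24 h), 27 to 31 from 0 to 24 h and 1 to 1 from 0 to 96 h. For DC90 it gave 0 to 2, 8 to 15 and 1 to 5 (5 without replicate 1 at 0 h).

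Replicate numbers were not taken as pairing the genotypes: over 17 pairs of same-numbered libraries, the correlation of their deviations from the group means ran from -0.30 to 0.56 and exceeded 0.1 in 9, among them all 3 pairs at 12 h (0.29, 0.56 and 0.32). With the replicate number as a block, 1 locus was called at 84 h, and no other count moved by over 1.5 times. Low counts limit loci near the floor of 3 counts.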
